A study of Mus musculus with 2 samples.

Results

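Erythroid and myeloid blood cells carry microRNAs of their own, and 5 genes for such microRNAs were followed in mouse midbrain at day 10.5 of embryonic life. They were chosen by symbol as Mir451a, Mir144 and Mir486, known from red blood cells, and Mir223 and Mir155, known from myeloid and other white blood cells. All 5 were found among the 1973 microRNA genes counted. The tissue came from strain B6NCrl, with both sexes pooled, and no treatment or altered gene is given for it. Its 2 libraries of RNA shorter than 30 nt are replicates 1 and 2 of 1 group, made from pooled midbrains of 69 and 51 embryos. There is no second group, so the data give levels and the difference between 2 pools. At day 10.5 the tissue holds blood vessels, and nothing in the labels says that blood was removed.

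A microRNA is cut from a hairpin precursor and loaded onto an Argonaute protein, where bases 2 to 8, the seed, pair with target messages. Mir144 and Mir451a are made from 1 transcript that the factor GATA1 drives in red cell precursors. The hairpin of Mir451a is known to skip the enzyme Dicer and to be cut by Argonaute 2. Mir486 lies in Ank1, a gene for a membrane skeleton protein of red cells. Mir223 is known as a myeloid microRNA that restrains granulocyte formation and activation, and Mir155 as one that is induced when macrophages and lymphocytes are activated. In the embryo, the first red cells and the precursors of brain macrophages come from the yolk sac.

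The sequences below are the mature microRNAs for which these genes are best known, 5′ to 3′ as in RefSeq on GRCm38.p6, the build of mm10, with the seed in capitals. Reads of the other arm count for the same gene, and the files do not give the share of each arm. RefSeq's table matched 4 of the 5 genes, and Mir486 is named only.
miR-451a: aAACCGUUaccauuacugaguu
miR-144-3p: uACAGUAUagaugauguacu
miR-223-3p: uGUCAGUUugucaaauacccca
miR-155-5p: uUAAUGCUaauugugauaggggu
No seed is common to any of these, and no other mature microRNA of the table has the same bases 2 to 8. Each of the 4 stood in 1 hairpin of the table only, so no second microRNA hairpin there would take its reads. Over the shorter run of bases 2 to 7, miR-144-3p matched miR-101a-3p, shown here with that run in capitals.
miR-101a-3p: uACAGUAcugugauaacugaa
Mir101a, the gene of the latter, had 266 CPM in replicate 1 and 136 CPM in replicate 2, where CPM is reads per 1000000 gene-assigned reads. Its level was above that of Mir144 in both libraries. Over bases 2 to 7, miR-223-3p matched miR-344f-5p, whose gene Mir344f had 10 and 3 reads.

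The hairpins of the 2 erythroid neighbours are shown because they differ in where the mature sequence, in capitals, lies.
Mir451a: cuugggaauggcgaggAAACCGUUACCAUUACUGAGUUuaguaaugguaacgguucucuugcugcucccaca
Mir144: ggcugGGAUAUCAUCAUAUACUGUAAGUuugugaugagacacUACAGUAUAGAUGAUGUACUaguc
In the minimum free energy fold the mature miR-451a, bases 17 to 38 of a hairpin of 72, ran through all 4 bases of the terminal loop. Both arms of Mir144 left its loop of 6 bases free, as did those of Mir155 (a loop of 8) and Mir223 (a loop of 5). Of 1558 mature sequences in RefSeq hairpins that folded with 1 loop, 2 (0.128%) ran through the whole loop, those of Mir451a and Mir468. Among the 506 from genes with a mean of 10 CPM or more, miR-451a was the 1 case. These positions describe predicted folds. The counts are per gene and do not separate the arms.

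The 3 erythroid genes lie at 2 places in the genome (mm10, GENCODE M21). Mir144 (ENSMUSG00000065401.1, chr11:78073005-78073070, plus strand) overlaps no other annotated gene, and 99 bases after it follows Mir451a (ENSMUSG00000070065.1, chr11:78073170-78073241, plus strand). Mir451b is annotated on the minus strand over exactly the bases of Mir451a and is not among the counted genes. Mir486 (ENSMUSG00000070084.3, chr8:23142555-23142682, plus strand) lies in an intron of Ank1 on the same strand, with Mir3107, not counted, within it on the minus strand. Mir223 (ENSMUSG00000076066.1, chrX:96242817-96242926, plus strand) lies in an exon of the noncoding gene F630028O10Rik. Mir155 (ENSMUSG00000065397.1, chr16:84714140-84714204, plus strand) lies in an exon of its host transcript Mir155hg.

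Together the 5 genes had 3270 reads in replicate 1 and 3517 in replicate 2, or 992 and 955 CPM. That was 0.0973% ± 0.00258 (SD, n = 2) of the gene-assigned reads, which numbered 3297835 and 3682410. The myeloid pair held more of these reads than the erythroid 3 in both libraries, at 588 and 581 CPM against 404 and 374 CPM. The ratio of erythroid to myeloid reads was 0.686 in replicate 1 and 0.643 in replicate 2. Any reads of Mir486 that map to several places are in neither these sums nor the ratio. How readily each microRNA enters a library was not tested. Comparisons between different genes, here and below, are therefore of reads and not of molecules. In bulk tissue such as this, fewer cells of a type and less RNA per cell cannot be told apart.

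Mir451a, the microRNA of maturing red cells, had the highest mean of the set, with 1167 reads in replicate 1, where it led, and 1087 in replicate 2, where Mir223 was higher. These were 354 CPM (95% Wilson interval 334 to 375) and 295 CPM (278 to 313), a mean of 325 ± 41.5 CPM (SD, n = 2). It made up 87.7% and 79.0% of the reads of the 3 erythroid genes and took rank 158 of the 1973 genes by mean CPM. The intervals cover counting error only, since the reads carry no molecular identifiers and can be copies of 1 molecule.

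Mir144, which is made from the same transcript, was counted far less often, with 106 and 161 reads. Its level was 32.1 CPM in replicate 1 (26.6 to 38.9) and 43.7 CPM in replicate 2 (37.5 to 51.0), a mean of 37.9 ± 8.19 CPM and rank 271. Mir486, the third erythroid gene, had 58 and 128 reads, or 17.6 CPM (13.6 to 22.7) and 34.8 CPM (29.2 to 41.3), a mean of 26.2 ± 12.1 CPM and rank 290. In both genes replicate 2 was the higher library, and their counting intervals did not overlap in Mir486 but did in Mir144. Of the reads of Mir486, 5 and 11 (8.62% and 8.59%) stood in the third count column, read here as the opposite strand. Its value is therefore uncertain by at least that share, and the part of Mir3107 in it was not tested. Without a sequence of Mir486, copies in other hairpins were not looked for, and reads that map to several places are not counted. The other 4 genes had no read in that column.

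Mir223 had 1035 and 1145 reads, which were 314 CPM in replicate 1 (295 to 334) and 311 CPM in replicate 2 (293 to 329). Its mean was 312 ± 2.05 CPM, at rank 160. Mir155 had 904 and 996 reads, or 274 CPM (257 to 293) and 270.5 CPM (254 to 288), with a mean of 272 ± 2.58 CPM at rank 167. Both myeloid genes had nearly equal levels in the pools, with coefficients of variation of 0.657% and 0.946% against 12.8% for Mir451a, 21.6% for Mir144 and 46.4% for Mir486. With 2 libraries, these coefficients have little precision of their own.

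**Figure D1:**
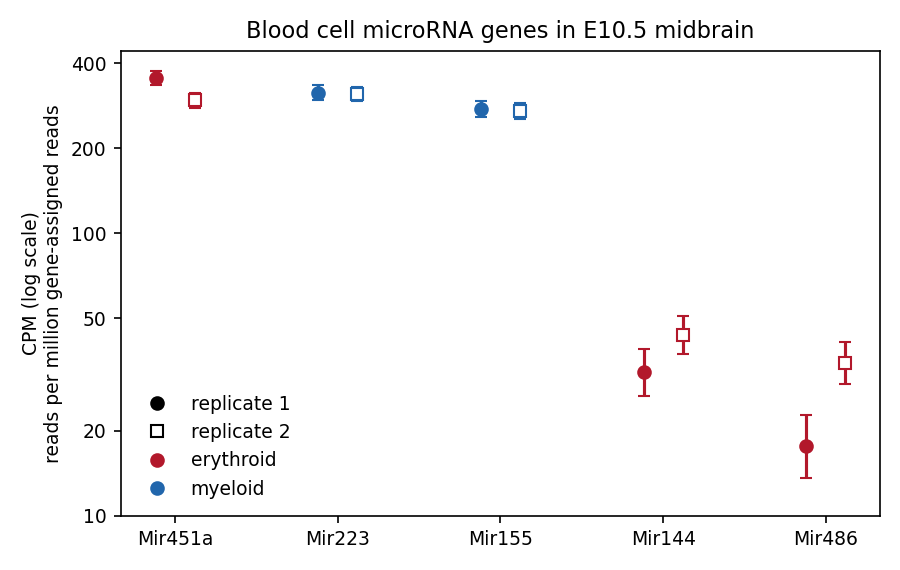
Level of the 5 genes in CPM on a log axis, with 1 point per library (filled circles replicate 1, open squares replicate 2) and bars for the 95% Wilson counting interval. Mir451a, Mir223 and Mir155 lie between 270.5 and 354 CPM, while Mir144 and Mir486 lie between 17.6 and 43.7 CPM.

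In the order of mean CPM, Mir451a came before Mir223, Mir155, Mir144 and Mir486. Mir451a and Mir223 were not separated, because replicate 2 of Mir451a (295 CPM) lay below both libraries of Mir223. The ratio of the 2 was 1.13 (counting interval 1.04 to 1.23) in replicate 1 and 0.949 (0.873 to 1.03) in replicate 2. Mir223 was above Mir155 in both libraries, by 1.14-fold (1.05 to 1.25) and 1.15-fold (1.06 to 1.25). The widest step was between Mir155 and Mir144, whose means differed 7.18-fold. Mir144 and Mir486 were not separated, since Mir486 in replicate 2 (34.8 CPM) exceeded Mir144 in replicate 1 (32.1 CPM). The place of Mir486 leaves out any of its reads that map to several places. With 2 libraries a gene, no exact permutation test can reach 0.05, and gene order is given as a description.

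The genes nearest to the members in level over both libraries, among 399 with at least 10 reads in each, are in none of the marker lists used here. Nearest to Mir451a were Mir542 (336 and 302 CPM) and Mir667 (324 and 298 CPM). Mir485 (317 and 306 CPM), and again Mir667, stood nearest to Mir223, and Mir679 (277 and 277 CPM) and Mir700 (258 and 281 CPM) to Mir155. For Mir144 they were Mir3066 (32.1 and 43.4 CPM) and Mir34b (34.6 and 40.5 CPM), and for Mir486 they were Mir5126 (16.1 and 34.2 CPM) and Mir190b (23.0 and 31.8 CPM). Likeness was the Euclidean distance in log2 CPM, which was 0.01 to 0.15 for these genes except Mir190b at 0.41, and it rests on 2 libraries.

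Between the 2 libraries, the read counts of the erythroid genes differed beyond counting error, in both directions. They did not pass edgeR's exact test (its unadjusted p was 0.0752 for Mir486, 0.404 for Mir144 and 0.607 for Mir451a). That test takes its spread from the same 2 libraries that it compares. It can therefore call few genes, and it cannot decide whether these differences exceed the usual spread between pools. A two-sided exact binomial test of replicate 2 against replicate 1, with TMM-scaled library sizes and Benjamini-Hochberg adjustment over 485 genes, called 3 of the 5 members. It called 49.7% of all genes tested, so the count of members is near the background. Mir486 was 1.97-fold higher in replicate 2 (counting interval 1.44 to 2.75, exact binomial adjusted p = 2.97e-05). Mir144 was 1.36-fold higher in replicate 2 (1.06 to 1.76, exact binomial adjusted p = 0.0302). Mir451a was 1.19-fold higher in replicate 1 (1.10 to 1.30, exact binomial adjusted p = 7.57e-05).

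The myeloid genes did not pass. Mir223 had a ratio of replicate 2 to replicate 1 of 0.994 (0.913 to 1.08, exact binomial adjusted p = 0.951). Mir155 had a ratio of 0.990 (0.904 to 1.08, exact binomial adjusted p = 0.905). Their log2 ratios, both −0.01, became 0.03 and 0.02 with DESeq2 size factors, so no direction is given. Of the 338 genes with a mean of 10 CPM or more, 332 had a larger absolute log2 ratio than Mir223 and 329 a larger one than Mir155. For Mir486 the number was 27, for Mir144 it was 87 and for Mir451a it was 171.

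The binomial test compares 2 libraries by counting error alone. With the common dispersion that edgeR estimates from the same 2 libraries as replicates (a biological coefficient of variation of 0.240), edgeR's exact test called none of the 5 genes at an adjusted level of 0.05, and none at an unadjusted p under 0.05. That test called 2 of 485 genes, or 0.412%. Few calls are possible by it, because the differences tested also set its spread. By that exact test the adjusted p of Mir486 was 0.882, and that of the other 4 genes was 1. The median log2 ratio of the 5 members was −0.01, against −0.02 over the 485 genes, and the median absolute log2 ratio was 0.26 against 0.33. Over the 133 genes within the range of the members' mean CPM the latter was 0.27, close to that of the members.

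**Figure D2:**
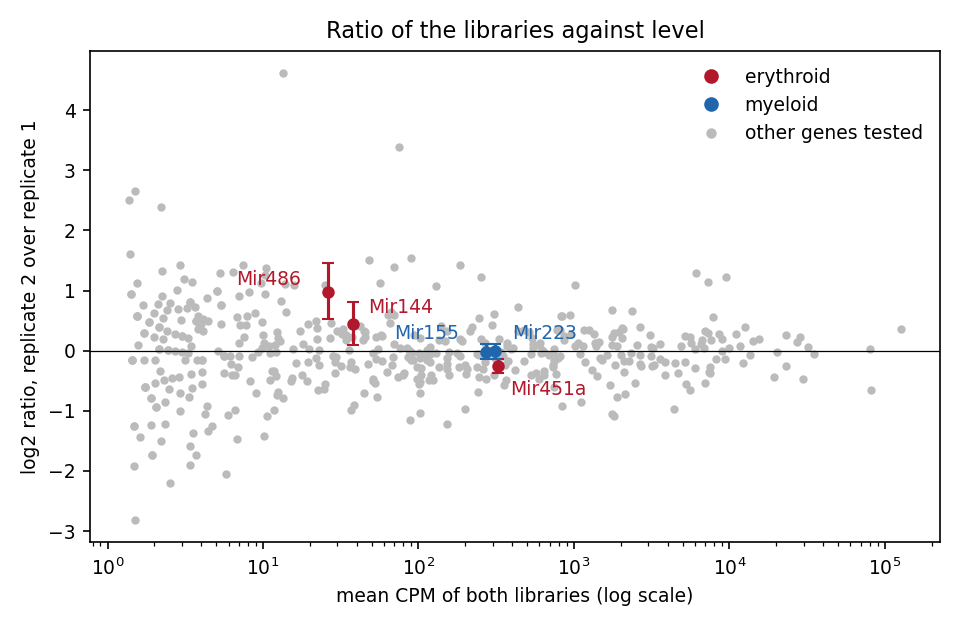
Log2 ratio of replicate 2 to replicate 1 against mean CPM (log axis) for the 485 genes tested, with the 5 blood cell genes in colour and bars for their 95% counting intervals. Mir223 and Mir155 sit next to the line of equal levels, Mir486 and Mir144 lie above it at 0.98 and 0.45, and Mir451a lies below it at −0.26.

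Mir144 and Mir451a, 99 bases apart, had ratios of opposite sign between the 2 libraries, called from counting error alone and by edgeR's exact test for neither gene. Mir451a had 11.0 reads for each read of Mir144 in replicate 1 (counting interval 9.02 to 13.6). In replicate 2 it had 6.75 (5.72 to 8.02), and the intervals do not overlap. Among 107 pairs of successive same-strand genes with gaps under 10 kb, both with a mean of 10 CPM or more, the median absolute difference in log2 ratio was 0.18. For Mir144 and Mir451a it was 0.70, and 3 pairs differed more. In 14 of the 107 pairs the binomial test called both members in opposite directions, this pair among them. These pairs are a description, as genes of a cluster are not independent, and library preparation and pool cannot be told apart.

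**Figure D3:**
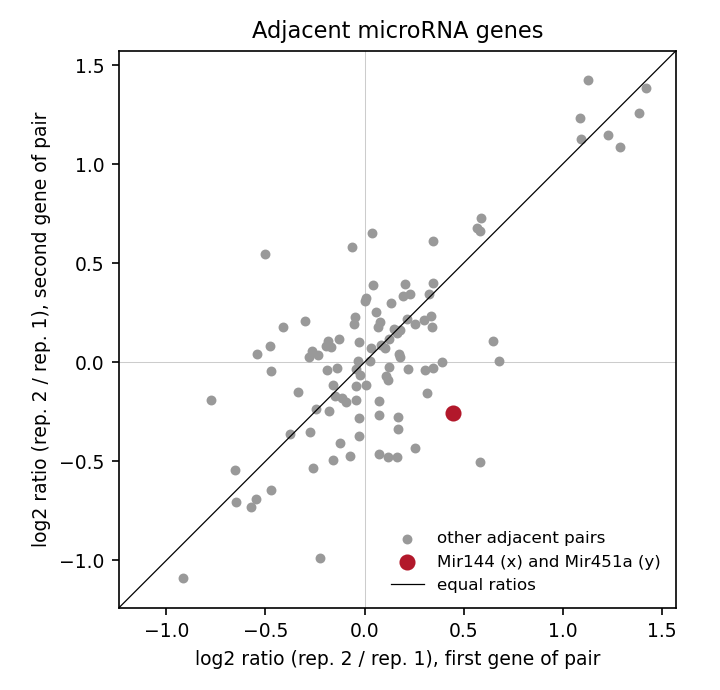
Log2 ratio of replicate 2 to replicate 1 of the second gene of each adjacent pair against that of the first, for 107 pairs, with the line of equal ratios. The median absolute difference within a pair is 0.18, and Mir144 with Mir451a (0.45 and −0.26) lies in the lower right, away from it.

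Other blood cell genes were listed beside the members: Mir451b and Mir486b of red cells, and Mir142, Mir142b, Mir150, Mir146, Mir146b, Mir147 and Mir342 of white cells. Of these 9, 6 are counted, 5 were tested and 2 were called by the binomial test, 1 higher (Mir142b) and 1 lower (Mir342) in replicate 2, against 49.7% of all genes tested. The count of Mir142b was 2250 and 3184 reads, or 682 and 865 CPM, all of them in the third count column. With that column read as the strand opposite to the gene, no read lay on the strand of Mir142b itself. They lay on the strand of Mir142, a pan-leukocyte microRNA gene that overlaps Mir142b and is not counted. The 2 myeloid members together had 0.862 and 0.672 reads for each read in the count of Mir142b.

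Mir342, which lies in Evl and is not restricted to blood, had 8247 and 6847 CPM and made up 91.8% and 88.2% of the white cell list. Without it that list had 736 and 913 CPM, nearly all from Mir142b with its reads in the third column, and without both genes 53.4 and 48.1 CPM. Mir146, induced by inflammatory signals, had 114 and 106 reads (34.6 and 28.8 CPM). The lymphocyte gene Mir150 had 24 and 25 reads, Mir147 had 35 and 41, and Mir146b had 3 and 5. Mir146, Mir150 and Mir147 did not pass the test, and Mir146b had too few reads to enter it.

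By gene counts, the most abundant markers of other cells of the tissue were far above the sum of the 5 genes. Others were counted below that sum, though not all of them below each of the 5. Mir126a, the microRNA gene of endothelium, had 26450 and 30780 CPM, which was 26.7 and 32.2 times the sum of the 5. The neural list had 27943 and 33331 CPM over 8 genes, of which Mir92b of neural progenitors, Mir219a-1 and Mir219a-2 held 99.4% and 99.7%. The neuronal genes Mir124a-1, Mir124a-2 and Mir124a-3 had 1.33, 13.4 and 7.04 CPM on average, and Mir9-2 and Mir9-3, of progenitors and neurons, 0.998 and 102 CPM. The mature sequences of Mir9 stand in 3 hairpins each, and miR-219a-5p in 2. Reads that map to several places (30.9% and 29.5% of all reads) are not in the gene counts. Copies were not resolved for Mir124a, so its low counts are not read as a low level. Muscle genes summed to 49.7 and 55.7 CPM over 6 genes, a level between those of Mir486 and the whole erythroid list. That sum came from Mir208b (33.9 CPM on average), Mir206 (10.3 CPM) and Mir208a (8.47 CPM), while Mir1a-1, Mir133a-1 and Mir133a-2 had no read in either library. Shared mature sequences were not resolved for the muscle genes without reads, so their zeros are not read as absence. Mir122 of hepatocytes had 5.76 and 15.2 CPM. Mir126b, Mir9-1 and Mir1a-2 of these lists are not counted. The part of blood left in the dissected tissue in any of these values was not tested.

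**Figure D4:**
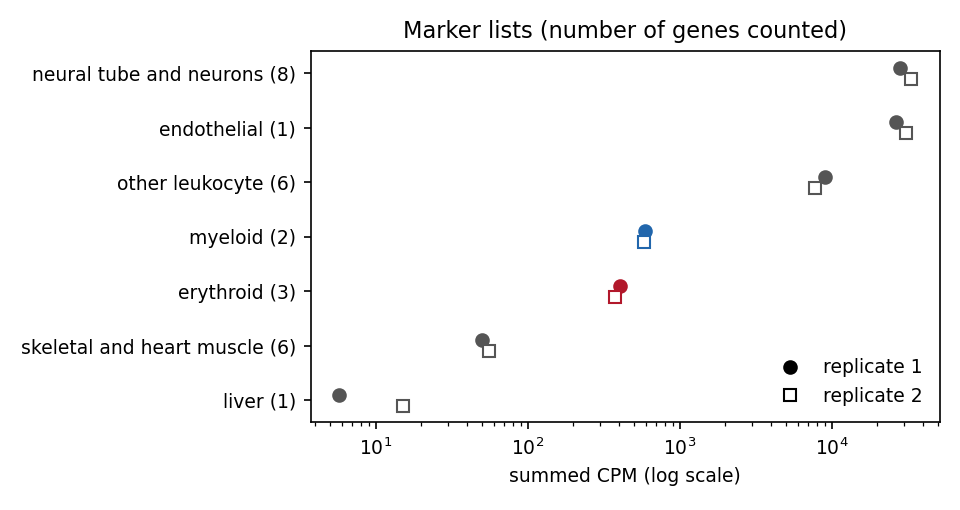
Summed CPM on a log axis of 7 lists of marker microRNA genes in each library, with the number of genes counted in brackets. The erythroid and myeloid lists, at 374 to 588 CPM, lie below the endothelial and neural lists and above the muscle list, and the leukocyte list is mostly Mir342. Reads that map to several places are not in these sums.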

How the data were processed

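Both libraries were deposited as tables of raw read counts per microRNA gene, aligned by the authors to mm10 and counted on GENCODE M4, per the text files deposited beside them. The sources used here do not name the aligner, counter or trimming. The first count column is the sum of the other 2, which were read as strands. It was used throughout. The 4 rows naming no gene (unmapped, multiply mapped, unassigned and ambiguous) held 57.8% and 60.9% of all reads and were left out. Symbols came from GENCODE M21 (1894 of 1973 identifiers).

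CPM, means, SDs and Wilson intervals at 95% were computed. Log2 ratios used 0.5 added reads and TMM (edgeR 4.0.16). Genes with at least 10 reads in sum entered the exact binomial test (scipy 1.17.1), run across all genes and tested on simulated data. The simulated libraries held counting error alone, with no spread between pools, so they do not show how the test behaves under such spread. The edgeR exact test and DESeq2 1.42.0 size factors were alternatives. Folds used ViennaRNA 2.7.2. Named were the members, their neighbours within 10 kb, genes sharing a seed, all list genes, and the 2 genes nearest each member in level. Mir468, Mir101a, Mir344f and Mir3107 were named after their values were seen. Members and lists were chosen with earlier results of these data known.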

Additional observations from a re-analysis of the deposited data

Results flagged for a closer look

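Mir486 had 5 reads in replicate 1 and 11 in replicate 2 in the third count column, read as the strand opposite to the gene. Both lie above the fixed floor of 3 counts set here. The 4 other blood cell genes had none there. Mir3107 lies on that strand within Mir486 and is not among the counted genes, and its part in these reads was not tested.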

How the results depend on the processing

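The levels, ratios and calls of the 5 genes were recomputed in 55 combinations of result and alternative. Per 1000000 of all reads in place of gene-assigned reads, the summed level of the 5 genes was 396. With the second count column alone, 3 of the 4 neighbouring steps in the order of levels were separated in place of 2, since fewer reads of Mir486 count, an alternative chosen after seeing the data. That column also gives fewer reads in the denominator, and the mean CPM of Mir223 and Mir155 became 321 and 279.8, a change above their SD. With DESeq2 size factors, which shift every log2 ratio by 0.03, Mir223 and Mir155 had log2 ratios of 0.0259 and 0.0200 and so changed sign. With edgeR's exact test and common dispersion, 0 of the 5 genes and 2 of all genes were called. That test adds to counting error a spread estimated from the same 2 libraries, so it can call few genes. By the binomial test, 3 of the 5 genes were called under each other scaling, column and filter tried, while the number called of all genes ran from 212 of 312 tested (67.9%, at least 100 reads in sum) to 240 of 485 (49.5%, total reads) and 228 of 769 (29.6%, no filter). Leaving out a replicate leaves the value of the other library and no test, and the ratio of Mir451a to Mir144 was then 6.75 or 11.0, and the mean CPM of Mir486 34.8 or 17.6. No paired analysis was possible because there is 1 group. Depth limits Mir144 and Mir486 most, at 58 to 161 reads a library.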
